A study of Arabidopsis thaliana with 12 samples.

Results

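Wild-type Arabidopsis thaliana seedlings germinated in a water stress medium were compared with wild-type seedlings germinated in control medium, over all 20002 genes listed for wild type, of 20780 genes listed in the series. The tested libraries were Col-0 seedlings at 5 days in water stress medium (WSM), which held 0.5X Murashige salts, 0.5% sucrose, 2.5% glycerol and 0.5% alginic acid. The controls were Col-0 seedlings at 5 days in control medium (NM), with the same salts and sucrose and neither glycerol nor alginic acid. Both groups grew in 50 ml of liquid in flasks at 21 °C with 16 h light and 8 h dark at 105 µmol photons per m2 and s, and whole seedlings were the tissue given. The series also holds an atg5 insertion line (SALK_020601C) in both media, which entered here only in a fit with all libraries. The labels describe 3 wild-type samples per medium. Count columns were at hand for 2 WSM libraries, numbered 3 and 4, and for 3 NM libraries, numbered 2, 3 and 4, and these numbers do not match those of the sample titles. Nothing in the labels says whether replicates came from separate flasks, so the p-values measure only the spread between these libraries, which may be technical. WSM differs from NM by glycerol and alginic acid together, and the effects of the 2 additions cannot be told apart.

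Glycerol dissolved in the medium lowers its water potential, so roots take up water less easily, and alginic acid is a gelling polysaccharide of brown algal walls. Plants meeting a shortage of water are known to make abscisic acid, to close stomata and to slow cell expansion, and they turn on genes for protective proteins and osmolytes. A separate and partly shared program follows mechanical disturbance, wall damage or microbial molecules. In it, receptor kinases at the plasma membrane trigger calcium influx, an oxidative burst by NADPH oxidases and mitogen-activated protein (MAP) kinases. These act on transcription factors of the WRKY, ERF, NAC and MYB families and on the defence hormones jasmonate, salicylic acid and ethylene. WRKY factors bind the W box, whose core reads TTGAC. CAMTA factors, which bind calmodulin, recognise CGCGT.

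Promoters of 5 genes are shown because their genes were among the largest rises or, for the vacuolar aquaporin TIP2, a large fall. Each line gives the 250 bases before the annotated start, 5′ to 3′ on the gene's strand, read from the TAIR10.1 RefSeq genome. Capitals mark the W-box core TTGAC or its reverse complement GTCAA, and the CAMTA core CGCGT or its reverse complement ACGCG.

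PP2-B14, chr1:21063048-21063297, minus strand: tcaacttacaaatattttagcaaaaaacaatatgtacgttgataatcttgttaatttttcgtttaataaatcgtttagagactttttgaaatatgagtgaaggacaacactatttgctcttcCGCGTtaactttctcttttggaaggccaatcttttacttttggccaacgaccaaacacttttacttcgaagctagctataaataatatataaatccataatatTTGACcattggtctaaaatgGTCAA

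WRKY38, chr5:7496991-7497240, minus strand: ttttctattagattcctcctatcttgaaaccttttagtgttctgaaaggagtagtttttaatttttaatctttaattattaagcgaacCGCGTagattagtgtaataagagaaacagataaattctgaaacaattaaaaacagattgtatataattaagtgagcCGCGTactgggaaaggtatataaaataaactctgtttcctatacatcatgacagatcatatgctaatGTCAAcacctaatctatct

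LOX4, chr1:27308263-27308512, plus strand: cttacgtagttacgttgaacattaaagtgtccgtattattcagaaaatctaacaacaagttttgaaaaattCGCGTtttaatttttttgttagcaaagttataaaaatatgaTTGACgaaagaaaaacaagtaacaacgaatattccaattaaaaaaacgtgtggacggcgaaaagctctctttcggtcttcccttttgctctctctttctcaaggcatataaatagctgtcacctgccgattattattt

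WRKY40, chr1:30383311-30383560, plus strand: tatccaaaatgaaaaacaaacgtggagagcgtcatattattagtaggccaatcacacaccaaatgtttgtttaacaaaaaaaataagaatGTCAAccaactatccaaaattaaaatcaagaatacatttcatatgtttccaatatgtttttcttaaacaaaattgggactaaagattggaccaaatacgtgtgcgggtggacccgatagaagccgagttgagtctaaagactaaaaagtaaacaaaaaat

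TIP2, chr3:9723905-9724154, minus strand: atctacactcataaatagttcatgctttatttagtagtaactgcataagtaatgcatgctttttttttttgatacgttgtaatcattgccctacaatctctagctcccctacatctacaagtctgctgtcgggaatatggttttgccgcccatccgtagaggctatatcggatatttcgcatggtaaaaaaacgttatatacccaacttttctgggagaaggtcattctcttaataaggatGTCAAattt

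PP2-B14 held 2 W-box cores and 1 CAMTA core in this stretch, WRKY38 1 and 2, LOX4 1 and 1, WRKY40 1 and 0, and TIP2 1 and 0. A match describes the letters of the window and does not show that a factor binds there.

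Library totals lay between 19007603 and 21934311 counts. Genes within the ribosomal RNA (rRNA) regions took 50.8% and 28.4% of the counts in WSM libraries 3 and 4, against 65.5%, 36.5% and 26.8% in NM libraries 2, 3 and 4. These shares overlap between the media, and NM library 2 had the highest. Levels are given as CPM, counts scaled to the library total after adjustment by the trimmed mean of M values and not per length. Log2 levels of the WSM pair correlated at 0.968, those of the NM pairs at 0.973 to 0.983, and those of pairs across media at 0.879 to 0.922. Chi-square per degree of freedom between paired libraries, outside the rRNA regions, was 29.3 for the WSM pair and 7.34 to 10.6 for NM pairs. Pairs across media gave 51.8 to 62.4. By this measure the WSM libraries differed more from each other than the NM libraries did. The first principal component held 72.6% of the variance and separated the media. The labelled tissue was checked against marker lists. The 38 nuclear photosystem genes summed to 33729 and 56527 CPM in WSM and to 46324, 51726 and 50909 CPM in NM, and the 18 root hair markers to 150.7 and 169 CPM in WSM and to 641, 435 and 395 CPM in NM, so both shoot and root RNA was present in every library. The 15 embryo and seed markers summed to 2005 and 1486 CPM in WSM and to 1574, 1958 and 2199 CPM in NM. In whole seedlings, fewer cells of a type and less RNA per cell cannot be told apart, which holds for every gene below.

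Lists of immune receptors, jasmonate signalling and WRKY and ERF transcription factors held more members called higher in WSM than lower, and lists of auxin response, cuticle and water channel genes more called lower. Of the 20002 genes tested, 2802 (14.0%) were called higher and 3031 (15.2%) lower in WSM by edgeR's quasi-likelihood test at a Benjamini-Hochberg adjusted p under 0.05, together 29.2%. With a fold change of at least 2 as a second condition, 1113 genes (5.56%) were higher and 1375 (6.87%) lower. Large changes were mostly rises, with 421 genes higher and 184 lower by at least 4-fold, and 162 higher and 39 lower by at least 8-fold. The rises include plastid-encoded genes, of which 70 of 79 were called higher, with a median log2 fold change of 2.297. The median log2 fold change over all genes was 0.02, with quartiles at -0.40 and 0.39. In 28.7% of all genes both WSM libraries lay above the 3 NM libraries, and in 27.9% below them. The called genes named below all had media that did not overlap. The authors' deposited table lists 2457 genes higher and 2983 lower at an adjusted p under 0.05, of which 5315 were also called here in the same direction and 0 in the opposite one. With the atg5 libraries in the same fit, whose spread between replicates is larger, 1161 genes passed, all of them among the 5833 called here and in the same direction. Gene lists below are described by how many members passed in each direction, to be read against 14.0% higher and 15.2% lower among all genes. List counts from other settings are to be read against the fewer calls over all genes there. These were 1930 higher and 2182 lower without NM library 2, 1719 and 2188 without NM library 3, and 2144 and 2462 without NM library 4. After a correction for exonic length they were 2045 and 2410, and with the atg5 libraries 644 and 517 of 19714 genes. Counts of 1 or 2 members often moved by 1 when a library was left out.

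**Figure D1:**
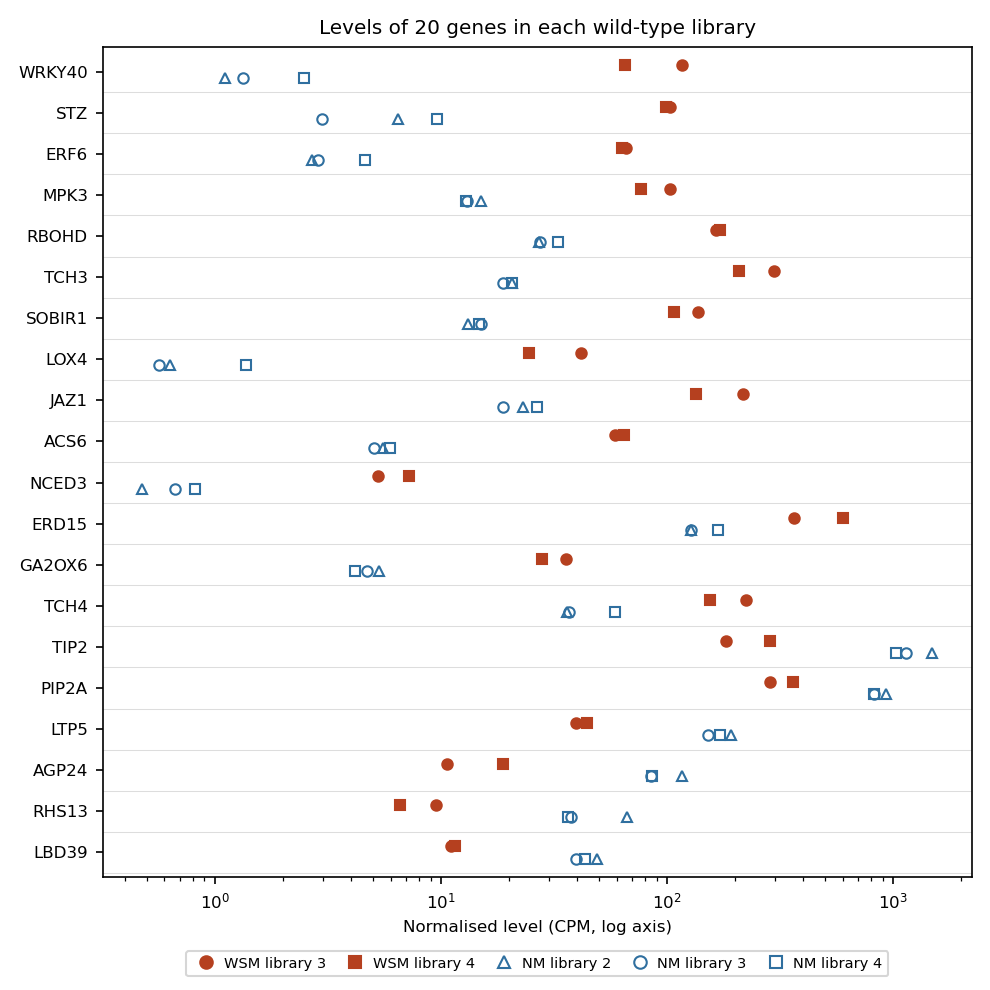
Levels of 20 genes in each wild-type library, in CPM on a log axis. Filled red symbols are the 2 WSM libraries and open blue symbols the 3 NM libraries. From WRKY40 to TCH4 both WSM libraries lie above every NM library, and from TIP2 to LBD39 both lie below.

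Among calcium, kinase and receptor genes, more members were called higher than lower. Of the immune receptor and kinase list, 16 of 22 members were called higher and 0 lower, with a median log2 fold change of 1.23. LYK5, a receptor for the fungal wall polymer chitin, was at 59.4 and 43.2 CPM in the WSM libraries, against 1.990, 1.71 and 3.50 CPM in the NM libraries, a log2 fold change of 4.37 ± 0.26 (SE, edgeR adjusted p = 6.84e-07). PEPR2, which senses plant elicitor peptides, had levels of 12.3 and 11.5 CPM in the WSM libraries, against 1.27, 1.33 and 1.04 CPM in the NM libraries, a log2 fold change of 3.30 ± 0.23 (SE, edgeR adjusted p = 1.82e-06). PROPEP3, the precursor of such a peptide, stood at 28.6 and 14.6 CPM in the WSM libraries, against 0.955, 0.760 and 1.191 CPM in the NM libraries, a log2 fold change of 4.44 ± 0.31 (SE, edgeR adjusted p = 1.82e-06). In all 3 genes both WSM libraries were several times above the highest NM library. SOBIR1, a kinase that partners receptor-like proteins, had a log2 fold change of 3.09 ± 0.16 (SE, edgeR adjusted p = 3.21e-07), and 22.90% of its exons overlap a gene on the opposite strand, so its level is uncertain. CERK1, the chitin co-receptor, did not pass, at 7.86 and 8.35 CPM in WSM against 8.44, 6.84 and 5.84 CPM in NM and a log2 fold change of 0.22 ± 0.21 (SE, edgeR adjusted p = 0.466). LYK4, a chitin receptor related to LYK5, did not pass either, at 4.80 and 1.88 CPM in WSM against 3.18, 2.71 and 2.60 CPM in NM.

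Cysteine-rich receptor-like kinases, a family of plasma membrane kinases linked to oxidative signals, followed with 12 of 19 members called higher and 0 lower (median log2 fold change 0.96). CRK10 was at 44.1 and 30.8 CPM in the WSM libraries, against 2.95, 4.09 and 4.84 CPM in the NM libraries, a log2 fold change of 3.21 ± 0.22 (SE, edgeR adjusted p = 1.48e-06). CRK11, encoded beside it, had levels of 38.4 and 27.5 CPM in WSM against 2.47, 3.56 and 5.43 CPM in NM, a log2 fold change of 3.06 ± 0.26 (SE, edgeR adjusted p = 7.92e-06). Of the wall-associated kinases, which bind pectin at the wall, 6 of 8 were called higher and 0 lower (median 2.097). WAKL2 stood at 12.6 and 8.50 CPM in the WSM libraries, against 0.955, 0.475 and 0.595 CPM in the NM libraries and WAKL6 at 10.8 and 7.20 CPM in WSM against 0.637, 0.855 and 0.707 CPM in NM. WAKL2 and WAKL6 had log2 fold changes of 4.03 and 3.58, with no overlap of the media. The founding members WAK1 and WAK2 did not pass, with log2 fold changes of 1.21 ± 0.43 (SE, edgeR adjusted p = 0.0503) and 0.39 ± 0.19 (SE, edgeR adjusted p = 0.15), WAK2 being uncertain because of an opposite-strand gene.

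Of the calcium sensors, 11 of 23 members were called higher and 1 lower, with a median log2 fold change of 0.55, or 0.35 without WSM library 3. TCH3, a calmodulin-like protein known from touch responses, was at 297 and 207 CPM in the WSM libraries, against 20.6, 18.9 and 20.7 CPM in the NM libraries, a log2 fold change of 3.65 ± 0.18 (SE, edgeR adjusted p = 2.83e-07). CPK28, a calcium-dependent kinase that restrains immune signalling, had levels of 69.8 and 42.5 CPM in WSM against 11.1, 9.31 and 13.0 CPM in NM, a log2 fold change of 2.33 ± 0.21 (SE, edgeR adjusted p = 1.37e-05). TCH2, a calmodulin-like protein found in the same touch screens, did not pass, at 45.9 and 22.96 CPM in WSM against 28.3, 24.3 and 31.0 CPM in NM, and is uncertain because of an opposite-strand gene. Whether TCH3 and TCH2 differ in response was not tested. Of 17 MAP kinase cascade genes, 7 were called higher and 0 lower, with a median of -0.01, and 3 were lower without WSM library 3. MPK3, a MAP kinase of stress and immunity, stood at 103 and 76.5 CPM in the WSM libraries, against 15.05, 13.0 and 12.9 CPM in the NM libraries, a log2 fold change of 2.72 ± 0.17 (SE, edgeR adjusted p = 7.04e-07). MPK6 and MPK4, which act beside MPK3, did not pass, with log2 fold changes of -0.57 ± 0.22 (SE, edgeR adjusted p = 0.0731) and -0.22 ± 0.16 (SE, edgeR adjusted p = 0.312), MPK4 being uncertain because of an opposite-strand gene. AGC2-1 (AT3G25250, also known as OXI1), a kinase activated by oxidative bursts, was at 16.5 and 11.2 CPM in WSM against 1.43, 1.24 and 1.97 CPM in NM, a log2 fold change of 3.13 ± 0.26 (SE, edgeR adjusted p = 7.27e-06).

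NADPH oxidases make superoxide outside the cell, and 3 of 5 were called higher and 0 lower. RBOHD, the main oxidase of immune bursts, had levels of 164 and 171 CPM in the WSM libraries, against 27.07, 27.5 and 32.9 CPM in the NM libraries, a log2 fold change of 2.52 ± 0.15 (SE, edgeR adjusted p = 6.84e-07). RHD2, the oxidase that drives root hair tip growth, did not pass, at 9.96 and 9.004 CPM in WSM against 8.76, 8.89 and 8.97 CPM in NM. Of 27 antioxidant enzymes, 1 was called higher and 5 lower, and the number lower was 2 without NM library 2 or 4 and 3 without NM library 3 or WSM library 3 or after a correction for exonic length. Among those lower was the copper/zinc superoxide dismutase CSD2, at 39.0 and 38.1 CPM in WSM against 87.7, 83.4 and 81.0 CPM in NM, a log2 fold change of -1.12 ± 0.14 (SE, edgeR adjusted p = 0.000181). Of 43 glutathione S-transferases, 9 were called higher and 10 lower, the lower count being 2 after that length correction and 5 without NM library 4. Ubiquitin ligases of the PUB and ATL families, which tune defence signalling, had 14 of 34 members called higher and 4 lower, or 2 lower without NM library 2, NM library 4 or WSM library 3. CNI1 (also known as ATL31), which links carbon and nitrogen status to growth and defence, stood at 20.07 and 21.01 CPM in WSM against 1.91, 1.71 and 3.05 CPM in NM, a log2 fold change of 3.17 ± 0.23 (SE, edgeR adjusted p = 2.61e-06). CSD2 did not pass with the atg5 libraries in the same fit (edgeR adjusted p = 0.0653).

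**Figure D2:**
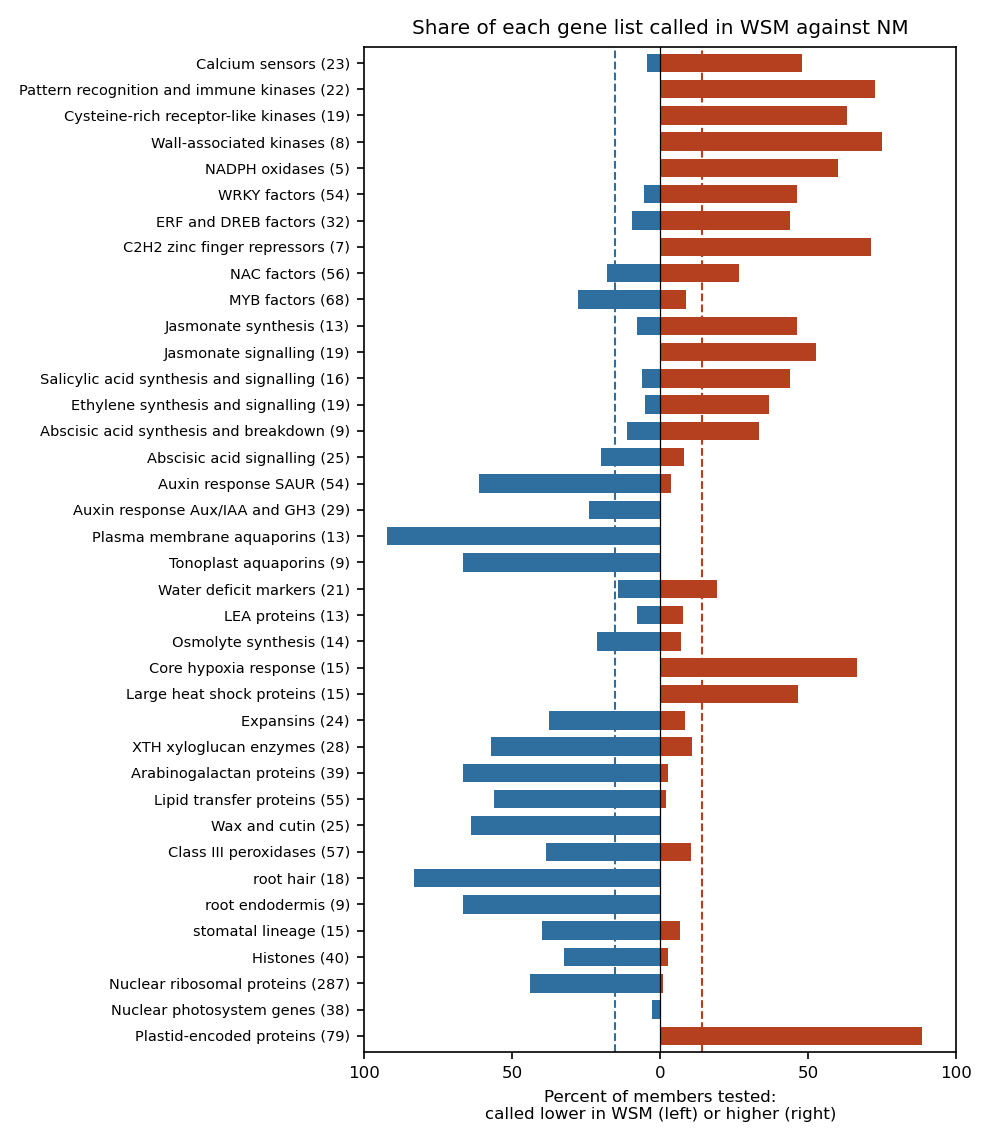
Share of each gene list called in WSM against NM, with the number of members tested in brackets. Bars to the right give the percent of members called higher and bars to the left the percent called lower, and dashed lines mark the 14.0% and 15.2% of all genes. Immune kinases reach 72.7% higher, plasma membrane aquaporins 92.3% lower and root hair markers 83.3% lower.

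Transcription factors of stress families accounted for several of the largest rises. Of the WRKY family, 25 of 54 members were called higher and 3 lower, with a median log2 fold change of 0.54, and 17 to 22 were higher when 1 library was left out. The number lower was 1 without NM library 2. WRKY40, a repressor within immune signalling, was at 116 and 64.9 CPM in the WSM libraries, against 1.11, 1.33 and 2.493 CPM in the NM libraries, a log2 fold change of 5.69 ± 0.31 (SE, edgeR adjusted p = 4.18e-07). WRKY38, which dampens basal defence, had levels of 13.8 and 10.6 CPM in the WSM libraries, against 0.318, 0.285 and 0.186 CPM in the NM libraries, a log2 fold change of 5.57 ± 0.31 (SE, edgeR adjusted p = 4.57e-07). WRKY62, a close relative of WRKY38, stood at 6.76 and 10.16 CPM in WSM against 0.478, 0.0950 and 0.149 CPM in NM and WRKY30, which responds to oxidants, at 13.9 and 8.90 CPM in WSM against 0.478, 0.0950 and 0.260 CPM in NM. None of the 4 genes overlapped between media. In NM all 4 were under 3 CPM. WRKY4 was not called, at 9.76 and 6.69 CPM in WSM against 10.8, 7.03 and 11.1 CPM in NM.

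Of the C2H2 zinc finger repressors, 5 of 7 members were called higher and 0 lower, with a median log2 fold change of 2.06. STZ (also known as ZAT10) was at 102 and 99.2 CPM in the WSM libraries, against 6.45, 2.994 and 9.56 CPM in the NM libraries, a log2 fold change of 3.98 ± 0.32 (SE, edgeR adjusted p = 5.1e-06). ZAT11 stood at 16.7 and 11.1 CPM in WSM against 0.955, 0.665 and 1.41 CPM in NM and ZF2, also known as AZF2, at 25.3 and 21.8 CPM in WSM against 5.02, 4.75 and 4.09 CPM in NM, with log2 fold changes of 3.73 and 2.36. ZF1 did not pass, at 9.06 and 5.42 CPM in WSM against 6.29, 5.13 and 4.95 CPM in NM. Of the ERF and DREB factors, 14 of 32 members were called higher and 3 lower, with a median log2 fold change of 0.35, and the median was 0.08 without WSM library 4 and 0.59 without WSM library 3. ERF6, an ethylene response factor downstream of MPK3 that slows leaf growth under osmotic stress, stood at 65.6 and 63.0 CPM in the WSM libraries, against 2.71, 2.85 and 4.61 CPM in the NM libraries, a log2 fold change of 4.21 ± 0.21 (SE, edgeR adjusted p = 3.01e-07). RRTF1, a redox-responsive factor of the same family, was at 36.8 and 32.4 CPM in WSM against 1.91, 1.52 and 1.41 CPM in NM, a log2 fold change of 4.45 ± 0.19 (SE, edgeR adjusted p = 1.58e-07), and 47.7% of its exons overlap an opposite-strand gene, so its level is uncertain. ORA59, which joins jasmonate and ethylene signals, did not pass, at 1.001 and 0.434 CPM in WSM against 1.11, 1.52 and 0.893 CPM in NM.

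The NAC and MYB families were divided. Of the NAC factors, 15 of 56 members were called higher and 10 lower, with a median log2 fold change of 0.24, and the number lower was 4 without NM library 3 and 5 without NM library 2 or WSM library 4. NAC036 had 16.8 and 14.2 CPM in the WSM libraries, against 0, 0.285 and 0.447 CPM in the NM libraries, a log2 fold change of 5.71 ± 0.39 (SE, edgeR adjusted p = 1.48e-06). NAC102, linked to low oxygen during germination, had levels of 133 and 109 CPM in WSM against 18.4, 23.3 and 24.8 CPM in NM, a log2 fold change of 2.44 ± 0.17 (SE, edgeR adjusted p = 1.48e-06). NAC062, a membrane-bound factor released under stress, stood at 55.9 and 41.1 CPM in WSM against 7.64, 8.13 and 7.67 CPM in NM, a log2 fold change of 2.63 ± 0.17 (SE, edgeR adjusted p = 9.39e-07). Of the MYB factors, 6 of 68 members were called higher and 19 lower, with a median log2 fold change of -0.36 (-0.22 after a correction for exonic length), and the number lower was 11 without NM library 3 and 12 without WSM library 4. MYB15, which acts in cold and defence, was at 24.4 and 17.47 CPM in the WSM libraries, against 0.557, 0.665 and 0.930 CPM in the NM libraries, a log2 fold change of 4.79 ± 0.26 (SE, edgeR adjusted p = 4.02e-07). MYB96, an activator of cuticular wax synthesis under drought, had levels of 82.7 and 47.8 CPM in WSM against 9.55, 9.12 and 10.94 CPM in NM, a log2 fold change of 2.72 ± 0.21 (SE, edgeR adjusted p = 4.24e-06). In contrast MYB27 stood at 0.350 and 0.651 CPM in WSM against 3.58, 3.33 and 2.307 CPM in NM, a log2 fold change of -2.54 ± 0.41 (SE, edgeR adjusted p = 0.000838).

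The W-box and CAMTA cores were found in a larger share of promoters of genes called at least 2-fold higher than in those of all genes. Motifs were searched on both strands in the 300 bases from 250 before to 50 after the start, in 1016 promoters of higher genes, 1375 of lower genes and 19863 of all tested genes. Promoters were taken from the nuclear chromosomes only. This left 1016 of the 1113 higher genes and all 1375 lower genes. The W-box core TTGAC was present in 66.3% of the higher promoters (exact 95% interval 63.3% to 69.2%), in 50.7% of the lower ones (48.0% to 53.4%) and in 50.8% of all. The CAMTA core CGCGT was present in 19.6% of the higher promoters (17.2% to 22.2%), in 6.18% of the lower ones (4.97% to 7.59%) and in 9.59% of all. The intervals cover counting error only, and promoters of related genes are not independent. GCCGCC, the core bound by ERF factors, was present in 4.33%, 1.60% and 2.70% of higher, lower and all promoters. CCGAC, the core bound by DREB factors, was present in 14.7%, 16.1% and 16.3%, the share of the higher genes being the lowest of the 3. ACGTG, the core of the abscisic acid response element, was present in 31.1%, 30.3% and 27.8%, and it overlaps the G-box CACGTG, present in 9.84%, 7.05% and 8.70%. TGGGCC, a site II core of ribosomal protein and growth genes, was present in 10.3% of higher, 12.5% of lower and 18.6% of all promoters, a smaller share in both called groups than over all genes. AACCCTA, the telo box found in promoters of the translation machinery, was present in 4.13%, 7.27% and 7.63%.

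**Figure D3:**
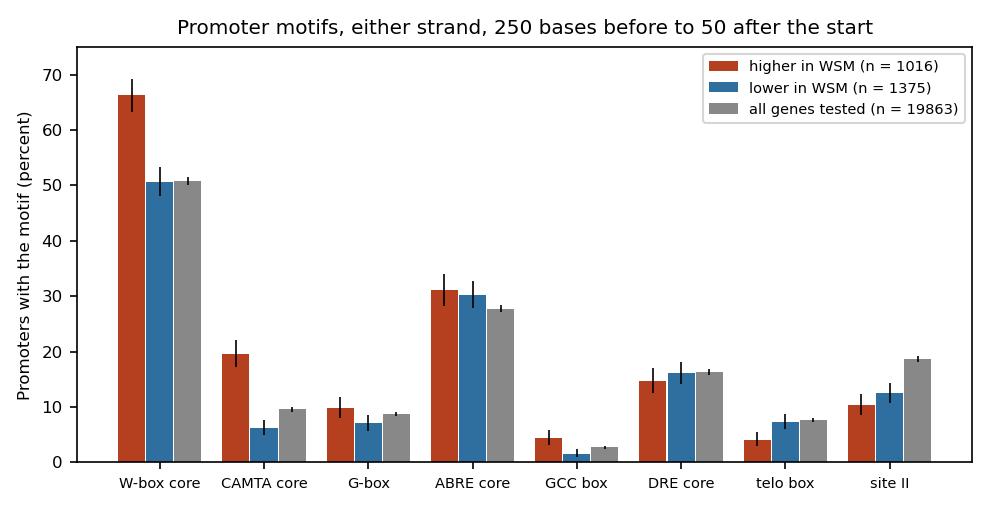
Percent of promoters that hold each motif on either strand, for genes at least 2-fold higher in WSM, genes at least 2-fold lower and all genes tested. Error bars are exact 95% binomial intervals, which cover counting error only. The W-box core (66.3% of higher genes against 50.8% of all) and the CAMTA core (19.6% against 9.59%) stand out among the higher genes.

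Jasmonate synthesis and signalling lists held more members called higher than lower, and a list of hormone turnover did not. Of the synthesis enzymes, 6 of 13 members were called higher and 1 lower, with a median log2 fold change of 0.51, and of the signalling genes 10 of 19 members were called higher and 0 lower, with a median log2 fold change of 1.01. Of 7 jasmonate conjugation and turnover genes, 1 was called higher and 1 lower. LOX4, a lipoxygenase that starts jasmonate synthesis, was at 41.7 and 24.4 CPM in the WSM libraries, against 0.637, 0.570 and 1.38 CPM in the NM libraries, a log2 fold change of 5.16 ± 0.33 (SE, edgeR adjusted p = 8.61e-07). LOX3, its close relative, stood at 48.3 and 36.2 CPM in WSM against 2.63, 2.61 and 3.50 CPM in NM, a log2 fold change of 3.83 ± 0.20 (SE, edgeR adjusted p = 3.21e-07), while LOX2, the main leaf lipoxygenase, did not pass at 18.9 and 17.90 CPM in WSM against 7.72, 16.7 and 14.8 CPM in NM. JAZ1, a repressor that jasmonate induces, stood at 216 and 134 CPM in the WSM libraries, against 23.2, 18.9 and 26.6 CPM in the NM libraries, a log2 fold change of 2.93 ± 0.21 (SE, edgeR adjusted p = 2.27e-06). CYP94B3, which oxidises the active hormone and was the single riser of the turnover list, was at 21.92 and 29.5 CPM in WSM against 1.03, 1.14 and 1.82 CPM in NM, a log2 fold change of 4.21 ± 0.25 (SE, edgeR adjusted p = 6.14e-07). MYC2, the central activator, had levels of 85.0 and 56.2 CPM in WSM against 19.7, 20.2 and 22.8 CPM in NM, and 98.5% of its exons overlap an opposite-strand gene, so its level is uncertain.

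Of the salicylic acid genes, 7 of 16 members were called higher and 1 lower, with a median log2 fold change of 0.48. GRX480, a glutaredoxin of salicylic acid signalling, stood at 13.7 and 11.6 CPM in the WSM libraries, against 0.637, 0.380 and 0.223 CPM in the NM libraries, a log2 fold change of 5.06 ± 0.32 (SE, edgeR adjusted p = 8.9e-07). CBP60G, a calmodulin-binding activator of salicylic acid synthesis, was at 8.96 and 6.98 CPM in WSM against 0.159, 0.190 and 0.335 CPM in NM, a log2 fold change of 4.99 ± 0.35 (SE, edgeR adjusted p = 1.82e-06). NPR3, a salicylic acid receptor, had levels of 84.5 and 62.3 CPM in WSM against 6.29, 8.55 and 8.67 CPM in NM, a log2 fold change of 3.21 ± 0.19 (SE, edgeR adjusted p = 6.04e-07). EDS16 (also known as ICS1), the synthesis enzyme that CBP60G is known to activate, did not pass, at 16.2 and 11.4 CPM in WSM against 9.55, 9.79 and 10.98 CPM in NM, a log2 fold change of 0.44 ± 0.19 (SE, edgeR adjusted p = 0.102). Of the ethylene genes, 7 of 19 members were called higher and 1 lower, with a median log2 fold change of 0.32, and after the length correction 6 were higher and 2 lower, with a median of 0.04. ACS6, which makes the ethylene precursor and is stabilised by MPK3, stood at 58.8 and 64.6 CPM in the WSM libraries, against 5.57, 5.04 and 5.95 CPM in the NM libraries, a log2 fold change of 3.48 ± 0.16 (SE, edgeR adjusted p = 1.58e-07). ACS2 did not pass, at 0.951 and 0.470 CPM in WSM against 1.59, 1.24 and 0.930 CPM in NM.

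Abscisic acid genes were split. Of the synthesis and breakdown enzymes 3 of 9 were called higher and 1 lower, and of 25 signalling genes 2 were called higher and 5 lower, with a median log2 fold change of -0.09. NCED3, the key synthesis enzyme under drought, was at 5.26 and 7.23 CPM in the WSM libraries, against 0.478, 0.665 and 0.819 CPM in the NM libraries, a log2 fold change of 3.19 ± 0.32 (SE, edgeR adjusted p = 2.6e-05). CYP707A3, which breaks the hormone down, had levels of 80.5 and 37.4 CPM in WSM against 8.68, 10.9 and 16.5 CPM in NM, a log2 fold change of 2.27 ± 0.30 (SE, edgeR adjusted p = 0.000206). The hormone receptors PYL5, PYL6 and PYL1 fell. PYL5 stood at 8.86 and 15.2 CPM in WSM against 58.0, 41.3 and 54.5 CPM in NM, a log2 fold change of -2.08 ± 0.23 (SE, edgeR adjusted p = 6.52e-05). PYL6 was at 2.60 and 3.54 CPM in WSM against 14.0, 14.4 and 15.2 CPM in NM and PYL1 at 15.5 and 9.004 CPM in WSM against 41.5, 36.4 and 33.1 CPM in NM, with log2 fold changes of -2.23 and -1.60, and their media did not overlap. The phosphatase AHG1, a negative regulator of the pathway, rose, at 5.205 and 3.72 CPM in WSM against 1.27, 1.76 and 1.97 CPM in NM, a log2 fold change of 1.38 ± 0.30 (SE, edgeR adjusted p = 0.00501). AHG1 did not pass with the atg5 libraries in the same fit (edgeR adjusted p = 0.3).

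Auxin response lists held more members called lower than higher. Of the small auxin up RNA (SAUR) genes, which promote cell expansion, 2 of 54 members were called higher and 33 lower, with a median log2 fold change of -1.36. The SAUR gene AT5G10990 had levels of 0.200 and 0.217 CPM in WSM against 1.51, 2.38 and 1.49 CPM in NM, a log2 fold change of -3.07 ± 0.50 (SE, edgeR adjusted p = 0.000874). AT5G20820 stood at 1.201 and 1.45 CPM in the WSM libraries, against 11.4, 7.79 and 7.52 CPM in the NM libraries, a log2 fold change of -2.72 ± 0.29 (SE, edgeR adjusted p = 4.05e-05). Both genes lay lower in every WSM library than in any NM library. Of the Aux/IAA and GH3 genes, which auxin induces, 0 of 29 were called higher and 7 lower, with a median of -0.29. AXR3, an Aux/IAA repressor, was at 21.02 and 11.8 CPM in WSM against 61.5, 40.7 and 45.6 CPM in NM, a log2 fold change of -1.59 ± 0.25 (SE, edgeR adjusted p = 0.000645). AUX1, an auxin influx carrier of the root, had levels of 5.31 and 7.92 CPM in WSM against 19.0, 21.2 and 12.09 CPM in NM, a log2 fold change of -1.38 ± 0.26 (SE, edgeR adjusted p = 0.00208). Of 17 auxin transport and synthesis genes, 1 was called higher and 4 lower. Of 13 brassinosteroid genes, 1 was called higher and 1 lower, and of 9 type-A response regulators of cytokinin 1 and 2. Of 18 genes in the gibberellin oxidase list, 1 was called higher and 5 lower, or 3 lower without NM library 3. The fallers of that list include GASA1, which is not an oxidase. GA2OX6, which inactivates gibberellin, was the one that rose, at 35.8 and 28.0 CPM in the WSM libraries, against 5.33, 4.70 and 4.17 CPM in the NM libraries, a log2 fold change of 2.76 ± 0.18 (SE, edgeR adjusted p = 1.17e-06). GA3OX2, which makes active gibberellin, stood at 3.25 and 3.44 CPM in WSM against 19.7, 9.50 and 10.7 CPM in NM, a log2 fold change of -1.97 ± 0.31 (SE, edgeR adjusted p = 0.000651). GASA1, a gibberellin-induced gene, was at 15.06 and 19.9 CPM in WSM against 68.8, 65.9 and 53.8 CPM in NM, a log2 fold change of -1.84 ± 0.18 (SE, edgeR adjusted p = 2.28e-05). AT5G20820, AXR3, GA3OX2 and GASA1 did not pass with the atg5 libraries in the same fit (edgeR adjusted p = 0.0585 to 0.165). No value from that fit was at hand for AT5G10990.

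Aquaporins, which carry water across membranes, were mostly called lower. Of the plasma membrane type, 0 of 13 members were called higher and 12 lower, with a median log2 fold change of -0.95, and 12 were also lower whichever library was left out, but 3 with the atg5 libraries in the same fit. PIP2A, a water channel of roots and leaves, had levels of 285 and 361 CPM in the WSM libraries, against 924, 823 and 817 CPM in the NM libraries, a log2 fold change of -1.40 ± 0.20 (SE, edgeR adjusted p = 0.000325). PIP1C stood at 79.3 and 108 CPM in WSM against 252, 213 and 232 CPM in NM and PIP2;4 at 3.70 and 5.64 CPM in WSM against 14.97, 20.1 and 19.7 CPM in NM, with log2 fold changes of -1.31 and -1.96. PIP2E was the single member not called, at 62.9 and 64.7 CPM in WSM against 84.9, 77.5 and 74.9 CPM in NM, a log2 fold change of -0.31 ± 0.14 (SE, edgeR adjusted p = 0.125). Of the tonoplast type, 0 of 9 members were called higher and 6 lower, with a median log2 fold change of -1.20, or -0.76 without WSM library 3 and -1.85 without WSM library 4, and 4 were lower with the atg5 libraries in the same fit. TIP2 (AT3G26520, also known as TIP1;2) was at 182 and 284 CPM in the WSM libraries, against 1489, 1139 and 1024 CPM in the NM libraries, a log2 fold change of -2.38 ± 0.27 (SE, edgeR adjusted p = 6.2e-05). TIP2;2 had levels of 51.0 and 85.3 CPM in WSM against 280.5, 217 and 218 CPM in NM, a log2 fold change of -1.81 ± 0.23 (SE, edgeR adjusted p = 0.000149). The seed aquaporins TIP3;1 and BETA-TIP did not pass, at 7.76 and 7.30 CPM in WSM against 6.05, 11.4 and 9.30 CPM in NM and at 2.70 and 3.76 CPM in WSM against 3.34, 5.75 and 4.43 CPM in NM, and both are uncertain because of opposite-strand genes.

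Listed markers of dehydration did not rise as a group. The entry RAB18 was left out because its symbol matched a gene with another product. Of the water deficit list, 4 of 21 members were called higher and 3 lower, with a median log2 fold change of 0.06, close to the share among all genes. DREB2A, a drought and heat factor, stood at 8.41 and 13.9 CPM in the WSM libraries, against 2.55, 2.19 and 1.97 CPM in the NM libraries, a log2 fold change of 2.34 ± 0.26 (SE, edgeR adjusted p = 6.05e-05). ERD15, an early dehydration gene, was at 362 and 597 CPM in WSM against 127, 127 and 168 CPM in NM, a log2 fold change of 1.77 ± 0.22 (SE, edgeR adjusted p = 0.000126). KIN2 fell, at 12.6 and 11.6 CPM in WSM against 53.6, 37.3 and 46.3 CPM in NM, a log2 fold change of -1.92 ± 0.18 (SE, edgeR adjusted p = 1.93e-05). LTI78 (also known as RD29A) stood at 23.62 and 24.1 CPM in WSM against 22.8, 18.30 and 21.5 CPM in NM and LTI65 (also known as RD29B) at 10.06 and 5.93 CPM in WSM against 5.10, 4.85 and 6.66 CPM in NM, and neither passed. Of 13 late embryogenesis abundant genes, 1 was called higher and 1 lower, with a median of 0.01, and leaving out NM library 3 ended the call of the first and leaving out NM library 4 that of the second. Of 14 osmolyte synthesis genes, 1 was called higher and 3 lower. P5CS1, the key enzyme of proline synthesis, stood at 10.96 and 12.3 CPM in WSM against 10.03, 11.3 and 11.7 CPM in NM, a log2 fold change of 0.07 ± 0.17 (SE, edgeR adjusted p = 0.78). P5CS1 therefore did not pass, whereas a breakdown gene did. ERD5, which breaks proline down, was at 49.5 and 59.7 CPM in WSM against 21.7, 25.8 and 36.92 CPM in NM, a log2 fold change of 0.95 ± 0.20 (SE, edgeR adjusted p = 0.00439). GolS3 and SIP1, which make galactinol and raffinose, were at 1.001 and 1.193 CPM in WSM against 4.54, 3.23 and 2.64 CPM in NM and at 5.26 and 8.61 CPM in WSM against 19.3, 20.5 and 15.4 CPM in NM, with log2 fold changes of -1.62 and -1.39. KIN2, ERD5 and SIP1 did not pass with the atg5 libraries in the same fit (edgeR adjusted p = 0.123 to 0.161).

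The added glycerol did not go with a change of its main kinase gene that passed the test. Of 14 glycerol metabolism genes 2 were called higher and 1 lower, with a median of 0.03. Of those called higher 1 was at least 2-fold higher, and log2 fold changes in the list ran from -0.92 to 2.27. NHO1, the glycerol kinase, stood at 59.4 and 85.1 CPM in the WSM libraries, against 72.7, 67.7 and 81.5 CPM in the NM libraries, a log2 fold change of -0.03 ± 0.18 (SE, edgeR adjusted p = 0.909). SDP6, which oxidises glycerol 3-phosphate in mitochondria, was at 22.7 and 18.15 CPM in WSM against 26.03, 20.5 and 23.59 CPM in NM, a log2 fold change of -0.20 ± 0.17 (SE, edgeR adjusted p = 0.412). PMT5, a transporter of polyols and sugars whose known substrates include glycerol, rose, at 55.8 and 63.7 CPM in the WSM libraries, against 24.0, 21.9 and 28.2 CPM in the NM libraries, a log2 fold change of 1.27 ± 0.15 (SE, edgeR adjusted p = 0.000115). SWEET17, a vacuolar fructose carrier, had levels of 2.55 and 1.66 CPM in WSM against 11.07, 8.13 and 7.48 CPM in NM, a log2 fold change of -2.08 ± 0.28 (SE, edgeR adjusted p = 0.00024). Of the trehalose phosphate enzymes, 8 of 14 members were called higher and 0 lower, with a median log2 fold change of 0.68, and 2 were higher after a correction for exonic length and 5 without NM library 2 or WSM library 3. TPPG, which makes trehalose from its phosphate, stood at 20.4 and 15.4 CPM in WSM against 4.94, 5.37 and 5.95 CPM in NM, a log2 fold change of 1.71 ± 0.19 (SE, edgeR adjusted p = 6.09e-05).

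Most xyloglucan enzymes and arabinogalactan proteins were called lower, and other cell wall lists had fewer calls. Of the xyloglucan enzymes (XTH), 3 of 28 members were called higher and 16 lower, with a median log2 fold change of -0.82, and of the expansins, which loosen walls, 2 of 24 were called higher and 9 lower. XTH12 was at 4.30 and 2.57 CPM in the WSM libraries, against 28.0, 16.92 and 13.6 CPM in the NM libraries, a log2 fold change of -2.51 ± 0.32 (SE, edgeR adjusted p = 0.000186). EXPA18 had levels of 3.05 and 4.990 CPM in WSM against 19.90, 14.8 and 12.09 CPM in NM, a log2 fold change of -1.93 ± 0.27 (SE, edgeR adjusted p = 0.000296). Against this, TCH4, a touch-induced XTH, stood at 223 and 154 CPM in the WSM libraries, against 36.1, 36.97 and 58.7 CPM in the NM libraries, a log2 fold change of 2.096 ± 0.22 (SE, edgeR adjusted p = 4.61e-05). EXLA3 was at 7.007 and 11.4 CPM in WSM against 0.398, 0.143 and 0.223 CPM in NM, a log2 fold change of 5.27 ± 0.39 (SE, edgeR adjusted p = 2.47e-06), and EXLA1 at 47.1 and 64.4 CPM in WSM against 10.91, 9.55 and 9.006 CPM in NM, both being expansin-like proteins without a shown wall-loosening activity. Of the arabinogalactan proteins, which are glycosylated wall and membrane proteins, 1 of 39 members was called higher and 26 lower, with a median log2 fold change of -1.01, or -0.64 without WSM library 3. AGP24 had levels of 10.7 and 18.8 CPM in the WSM libraries, against 116, 85.1 and 85.4 CPM in the NM libraries, a log2 fold change of -2.68 ± 0.25 (SE, edgeR adjusted p = 1.49e-05). AGP15 stood at 15.92 and 18.23 CPM in WSM against 119, 76.1 and 68.5 CPM in NM and AGP14 at 3.45 and 5.06 CPM in WSM against 26.8, 23.8 and 26.98 CPM in NM, with log2 fold changes of -2.36 and -2.59. Of 57 class III peroxidases, which act in the wall, 6 were called higher and 22 lower, but 1 and 0 with the atg5 libraries in the same fit. PER4 was at 46.9 and 25.2 CPM in WSM against 6.85, 4.32 and 5.95 CPM in NM, a log2 fold change of 2.67 ± 0.26 (SE, edgeR adjusted p = 2.06e-05), whereas AT5G17820 had levels of 37.7 and 28.3 CPM in WSM against 155, 118 and 115 CPM in NM, a log2 fold change of -1.97 ± 0.20 (SE, edgeR adjusted p = 2.64e-05). Cellulose synthase family genes were divided, with 6 of 35 higher and 4 lower, or 2 lower without NM library 3, and 2 higher and 8 lower after the length correction, which moved the median to -0.23, against 0.05. CSLC04, which makes the xyloglucan backbone, stood at 60.2 and 71.3 CPM in WSM against 29.5, 29.3 and 30.4 CPM in NM, a log2 fold change of 1.15 ± 0.14 (SE, edgeR adjusted p = 0.000128), and CEV1 (also known as CESA3), a subunit for primary wall cellulose, at 79.0 and 64.1 CPM in WSM against 140.3, 132 and 109 CPM in NM, a log2 fold change of -0.83 ± 0.17 (SE, edgeR adjusted p = 0.00347). XTH12, EXPA18, AGP24, AT5G17820 and CEV1 did not pass with the atg5 libraries in the same fit (edgeR adjusted p = 0.0915 to 0.267).

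Most wax, cutin and lipid transfer genes were called lower. Of the wax and cutin genes, 0 of 25 members were called higher and 16 lower, with a median log2 fold change of -0.62, and the number lower was 10 without WSM library 4. CYP86A8, which oxidises fatty acids for cutin, was at 14.3 and 13.9 CPM in the WSM libraries, against 50.08, 45.8 and 48.0 CPM in the NM libraries, a log2 fold change of -1.77 ± 0.15 (SE, edgeR adjusted p = 7.38e-06). CER10, which completes fatty acid elongation, had levels of 26.08 and 19.0 CPM in WSM against 60.7, 54.9 and 46.3 CPM in NM, a log2 fold change of -1.26 ± 0.18 (SE, edgeR adjusted p = 0.000394). LTPG2, which helps export wax to the surface, stood at 9.61 and 18.8 CPM in WSM against 64.1, 46.5 and 62.6 CPM in NM, a log2 fold change of -2.01 ± 0.26 (SE, edgeR adjusted p = 0.000174). The wax activator MYB96 rose, as given above, while the wax and cutin list had 0 members called higher. Of the lipid transfer proteins, 1 of 55 members was called higher and 31 lower, with a median log2 fold change of -0.95, or -0.61 after a correction for exonic length. LTP5 was at 39.5 and 44.2 CPM in the WSM libraries, against 191, 152 and 172 CPM in the NM libraries, a log2 fold change of -2.03 ± 0.17 (SE, edgeR adjusted p = 6.3e-06). LTP2, an epidermal lipid transfer protein, had levels of 402 and 366 CPM in WSM against 1369, 1083 and 1169 CPM in NM, a log2 fold change of -1.65 ± 0.21 (SE, edgeR adjusted p = 0.000159).

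Most root hair and endodermis markers were called lower, and the share of these cells in the seedling was not measured. Of the root hair markers, 0 of 18 members were called higher and 15 lower, with a median log2 fold change of -1.65. RHS13, an extensin-related root hair protein, stood at 9.51 and 6.58 CPM in the WSM libraries, against 66.3, 37.6 and 36.4 CPM in the NM libraries, a log2 fold change of -2.54 ± 0.28 (SE, edgeR adjusted p = 5.73e-05). RHS18, a root hair peroxidase, was at 3.55 and 3.22 CPM in WSM against 18.5, 12.07 and 11.5 CPM in NM, a log2 fold change of -2.04 ± 0.25 (SE, edgeR adjusted p = 0.000121). RHS13 was highest in NM library 2 and lower in both WSM libraries than in all NM libraries. Of the endodermis markers, 0 of 9 members were called higher and 6 lower, with a median log2 fold change of -1.07. CASP1, which places the Casparian strip, had levels of 17.72 and 23.1 CPM in the WSM libraries, against 45.2, 44.5 and 41.8 CPM in the NM libraries, a log2 fold change of -1.10 ± 0.16 (SE, edgeR adjusted p = 0.000422). The endodermis factors MYB36 and SCR, which act upstream of CASP1, did not pass, at 9.36 and 8.64 CPM in WSM against 7.40, 8.93 and 8.86 CPM in NM and at 29.3 and 37.7 CPM in WSM against 30.2, 31.9 and 31.9 CPM in NM. Of the stomatal lineage markers, 1 of 15 was called higher and 6 lower, but the number lower was 2 without NM library 4 and 3 without NM library 3 or WSM library 3 or after the length correction. EPF2, a peptide that limits stomatal number, stood at 2.302 and 3.110 CPM in WSM against 8.28, 6.08 and 7.55 CPM in NM, a log2 fold change of -1.41 ± 0.25 (SE, edgeR adjusted p = 0.00155), and TMM, its receptor-like partner, at 3.75 and 8.17 CPM in WSM against 18.8, 19.2 and 20.3 CPM in NM, a log2 fold change of -1.68 ± 0.26 (SE, edgeR adjusted p = 0.000669). In the fit with the atg5 libraries, 0 of the 18 root hair markers and 1 of the 9 endodermis markers passed. RHS13, RHS18 and TMM did not pass with the atg5 libraries in the same fit (edgeR adjusted p = 0.0548 to 0.263).

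Ribosomal protein, histone and cytoskeleton genes had more members lower than higher, and genes of division were called no more often than all genes. Of the nuclear ribosomal protein genes, 3 of 287 members were called higher and 126 lower, with a median log2 fold change of -0.44. AT5G18380, a ribosomal protein S5 family member, was at 127 and 111 CPM in the WSM libraries, against 472, 419 and 396 CPM in the NM libraries, a log2 fold change of -1.85 ± 0.18 (SE, edgeR adjusted p = 1.79e-05). Ribosomal protein transcripts are short, with a median exonic length of 1018 bases against 1739 over all genes, and after a correction for length 10 were higher and 74 lower with a median of -0.17. The number higher was 1 without NM library 3 and 6 without WSM library 3. AT2G07734, one of the 3 called higher, lies in the copy of the mitochondrial genome on chromosome 2, and its counts may include mitochondrial reads. Of 40 histone genes, 1 was called higher and 13 lower, with a median of -0.28, and 3 and 9 after the length correction, with a median of 0.02. HTA10, a histone H2A, had levels of 70.2 and 61.0 CPM in WSM against 169, 142 and 162 CPM in NM, a log2 fold change of -1.26 ± 0.16 (SE, edgeR adjusted p = 0.000145). Of 27 DNA replication genes, 3 were called higher and 3 lower, and of 44 mitotic genes 6 and 5. In both lists the shares lay below the 14.0% higher and 15.2% lower of all genes. The number of replication genes higher was 1 without NM library 3, 0 without NM library 4 or WSM library 3 and 5 without WSM library 4, and that of mitotic genes was 3 without NM library 2. After the length correction 0 replication genes were higher and 2 lower, and 3 and 3 mitotic genes. PCNA1, the sliding clamp of replication, stood at 17.1 and 16.6 CPM in WSM against 30.2, 27.6 and 27.6 CPM in NM, a log2 fold change of -0.75 ± 0.15 (SE, edgeR adjusted p = 0.00281). The helicase subunits MCM2 and MCM3 did not pass, at 22.2 and 13.0 CPM in WSM against 14.6, 15.2 and 16.00 CPM in NM and at 24.5 and 16.5 CPM in WSM against 17.36, 14.4 and 19.6 CPM in NM. Of 22 tubulins and actins, 1 was called higher and 10 lower, but 0 in either direction with the atg5 libraries in the same fit. ACT2, often used as a reference gene, was at 157 and 191 CPM in WSM against 328, 313 and 267 CPM in NM, a log2 fold change of -0.80 ± 0.17 (SE, edgeR adjusted p = 0.00473). ACT2 and AT2G07734 did not pass with the atg5 libraries in the same fit (edgeR adjusted p = 0.17 to 0.171).

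Protein turnover genes had calls in both directions, and autophagy genes were called no more often than all genes. Of 39 proteasome subunits, 2 were called higher and 10 lower, with 3 lower after the length correction, 4 without NM library 2 or 3, and 5 without NM library 4 or WSM library 3. PBD2, a subunit of the proteolytic core, had levels of 32.6 and 38.3 CPM in WSM against 58.4, 53.8 and 58.9 CPM in NM, a log2 fold change of -0.68 ± 0.15 (SE, edgeR adjusted p = 0.00484). Of the autophagy genes, 4 of 33 members were called higher and 3 lower, with a median log2 fold change of -0.06. These shares, 12.1% and 9.09%, lay below the 14.0% and 15.2% of all genes. G18F (also known as ATG18F), a phosphoinositide-binding protein of the autophagy machinery, stood at 17.07 and 16.3 CPM in the WSM libraries, against 5.97, 4.99 and 6.996 CPM in the NM libraries, a log2 fold change of 1.47 ± 0.19 (SE, edgeR adjusted p = 0.000173). APG8A (also known as ATG8A), the ubiquitin-like protein of the autophagosome membrane, was at 8.81 and 6.15 CPM in WSM against 16.6, 15.2 and 12.2 CPM in NM, a log2 fold change of -0.97 ± 0.21 (SE, edgeR adjusted p = 0.00535). The number of autophagy genes higher was 1 after the length correction or without NM library 3 or 4 and 2 without WSM library 4, and the number lower was 1 without NM library 2 or 3. Of 18 endoplasmic reticulum stress genes, 3 were called higher and 0 lower, or 1 higher without WSM library 4, and the chaperones BIP1 and BIP2 did not pass, at 186 and 161 CPM in WSM against 164, 134 and 183 CPM in NM and at 181 and 158 CPM in WSM against 151, 135 and 190.0 CPM in NM. PBD2 did not pass with the atg5 libraries in the same fit (edgeR adjusted p = 0.107).

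Fewer low-oxygen and heat genes passed without WSM library 4. Of the core hypoxia genes, 10 of 15 members were called higher and 0 lower, with a median log2 fold change of 0.99, and 5 were higher without WSM library 4, with a median of 0.38. AT4G33070, a pyruvate decarboxylase of fermentation, had levels of 52.5 and 245 CPM in the WSM libraries, against 8.84, 9.60 and 16.3 CPM in the NM libraries, a log2 fold change of 3.67 ± 0.48 (SE, edgeR adjusted p = 0.000186). ADH1, alcohol dehydrogenase, stood at 25.7 and 92.8 CPM in the WSM libraries, against 16.9, 9.65 and 15.03 CPM in the NM libraries, a log2 fold change of 2.11 ± 0.39 (SE, edgeR adjusted p = 0.00202). In both genes WSM library 4 was the highest library, and WSM library 3 also lay above every NM library. LBD41, a factor of the same response, did not pass, at 107 and 98.7 CPM in WSM against 90.20, 147 and 200.2 CPM in NM. Of 15 large heat shock proteins, 7 were called higher and 0 lower, or 4 higher without WSM library 4 and 3 after the length correction. HSP90.1 was at 34.9 and 62.9 CPM in WSM against 18.5, 20.96 and 22.7 CPM in NM, a log2 fold change of 1.24 ± 0.21 (SE, edgeR adjusted p = 0.00125), and HSP70 did not pass, at 73.5 and 118 CPM in WSM against 79.9, 92.1 and 84.0 CPM in NM. BCS1 (AT3G50930), an ATPase of the mitochondrial outer membrane, was the single called member of 7 mitochondrial stress genes, at 83.6 and 76.5 CPM in the WSM libraries, against 7.56, 3.992 and 6.29 CPM in the NM libraries, a log2 fold change of 3.77 ± 0.22 (SE, edgeR adjusted p = 5.07e-07). AOX1A, the alternative oxidase often used as a sign of mitochondrial stress, did not pass, at 14.8 and 14.3 CPM in WSM against 6.69, 15.63 and 13.2 CPM in NM. ADH1 and HSP90.1 did not pass with the atg5 libraries in the same fit (edgeR adjusted p = 0.172 to 0.262).

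**Figure D4:**
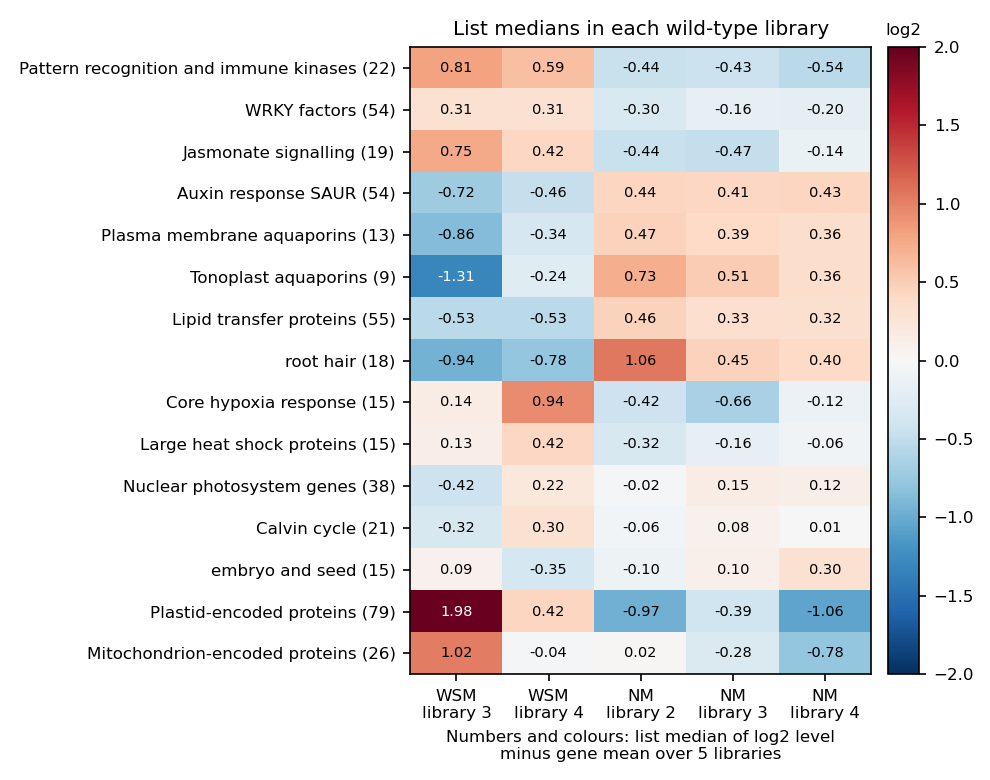
Median over list members of the log2 level in each library minus the gene's mean over the 5 libraries, with the number of members tested in brackets. Red is above and blue below the mean. Immune kinases, WRKY and jasmonate lists are above in both WSM libraries and SAUR, aquaporin, lipid transfer and root hair lists below, while photosystem, Calvin cycle and embryo lists differ in sign between WSM libraries 3 and 4.

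Nuclear photosynthesis genes did not differ in the same way in the 2 WSM libraries. Of 38 nuclear photosystem genes, 0 were called higher and 1 lower, with a median of -0.13. Their median deviation from the mean of the 5 libraries was -0.42 in WSM library 3 and 0.22 in WSM library 4, against -0.02, 0.15 and 0.12 in NM libraries 2, 3 and 4. Without WSM library 3 the median was 0.18 and 3 genes were higher, and without WSM library 4 it was -0.56 and 17 were lower. LHCB6, an antenna protein, had levels of 1098 and 2141 CPM in the WSM libraries, against 1511, 1682 and 1807 CPM in the NM libraries. RBCS1A, a small subunit of Rubisco, stood at 3206 and 5877 CPM in the WSM libraries, against 4912, 5097 and 4661 CPM in the NM libraries. For both genes the NM libraries lay between the WSM libraries. Of 22 chlorophyll synthesis genes, 4 were called higher and 2 lower. HEMA2, a glutamyl-tRNA reductase of roots and stress, was at 46.9 and 40.5 CPM in WSM against 13.1, 10.07 and 12.02 CPM in NM, a log2 fold change of 1.90 ± 0.16 (SE, edgeR adjusted p = 7.73e-06), and HEMA1, the main form in leaves, at 228 and 238 CPM in WSM against 106, 134 and 155 CPM in NM, a log2 fold change of 0.83 ± 0.17 (SE, edgeR adjusted p = 0.00399). HEMA1 did not pass with the atg5 libraries in the same fit (edgeR adjusted p = 0.138).

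Most plastid-encoded transcripts were called higher in WSM, and their share was highest in library 3. Of 79 plastid-encoded protein genes, 70 were called higher and 0 lower, with a median log2 fold change of 2.297, and 47 were higher without WSM library 3, with a median of 1.36. They took 1.217% and 0.4092% of the counts outside rRNA regions in WSM libraries 3 and 4, against 0.2064%, 0.2283% and 0.1227% in NM libraries 2, 3 and 4. Plastid rRNA moved in the same direction, at 14.06% and 8.864% of all counts in the WSM libraries against 4.465%, 4.724% and 3.272% in the NM libraries, and so did mitochondrial rRNA, at 1.797% and 1.048% against 0.4608%, 0.5464% and 0.4206%. The libraries were made with an mRNA kit, and how organelle RNA entered them was not tested. rbcL, the large subunit of Rubisco, had levels of 2237 and 853 CPM in the WSM libraries, against 513, 488 and 249.4 CPM in the NM libraries, a log2 fold change of 1.89 ± 0.37 (SE, edgeR adjusted p = 0.00277). rps3, a plastid ribosomal protein, stood at 92.9 and 34.4 CPM in WSM against 4.06, 9.31 and 6.33 CPM in NM, a log2 fold change of 3.25 ± 0.37 (SE, edgeR adjusted p = 7.05e-05). psbA, the photosystem II protein D1, did not pass, at 172 and 57.5 CPM in WSM against 219, 138 and 58.1 CPM in NM. Of 26 mitochondrion-encoded genes, 12 were called higher and 0 lower, and 6 without WSM library 3. In the fit with the atg5 libraries, 1 plastid-encoded gene and 0 mitochondrion-encoded genes passed. rbcL and rps3 did not pass with the atg5 libraries in the same fit (edgeR adjusted p = 0.0676 to 0.153).

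Nutrient lists had calls in both directions. Of 18 nitrate uptake and assimilation genes, 3 were called higher and 8 lower, or 1 and 7 after the length correction. LBD38 and LBD39, nitrate-induced repressors of nitrogen and anthocyanin genes, fell. LBD39 was at 11.1 and 11.5 CPM in the WSM libraries, against 48.9, 39.7 and 43.5 CPM in the NM libraries, a log2 fold change of -1.96 ± 0.16 (SE, edgeR adjusted p = 6.28e-06). LBD38 had levels of 20.6 and 17.3 CPM in WSM against 73.2, 66.4 and 68.3 CPM in NM, a log2 fold change of -1.87 ± 0.16 (SE, edgeR adjusted p = 7.04e-06). NIA2, the main nitrate reductase, did not pass, at 394 and 408 CPM in WSM against 401, 429 and 431 CPM in NM. Of 17 phosphate starvation genes, 4 were called higher and 1 lower. SPX1, a phosphate sensor that phosphate shortage induces, stood at 30.3 and 34.8 CPM in WSM against 8.52, 5.66 and 8.52 CPM in NM, a log2 fold change of 2.11 ± 0.19 (SE, edgeR adjusted p = 1.39e-05). Of 16 sulfur deficiency genes, 8 were called higher and 2 lower, or 5 higher without NM library 2 or WSM library 4, and 0 lower without NM library 3 or WSM library 3. APR3, which reduces activated sulfate, was at 100.5 and 122.9 CPM in WSM against 36.1, 49.6 and 53.7 CPM in NM, a log2 fold change of 1.26 ± 0.18 (SE, edgeR adjusted p = 0.000371). Of 13 iron deficiency genes, 0 were called higher and 3 lower. NAS1, which makes the metal chelator nicotianamine, stood at 36.99 and 28.8 CPM in WSM against 94.98, 95.5 and 79.1 CPM in NM, a log2 fold change of -1.45 ± 0.17 (SE, edgeR adjusted p = 9.73e-05), and IRT2, an iron transporter, at 0.200 and 0.289 CPM in WSM against 4.06, 3.71 and 2.010 CPM in NM, a log2 fold change of -3.65 ± 0.49 (SE, edgeR adjusted p = 0.00024). IRT2 did not pass with the atg5 libraries in the same fit (edgeR adjusted p = 0.0541).

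Secondary metabolism was split by branch. Of 21 camalexin and indole glucosinolate genes, 7 were called higher and 3 lower, or 1 lower without WSM library 4. CYP81F2, which modifies indole glucosinolates during defence, stood at 14.6 and 11.1 CPM in the WSM libraries, against 2.87, 2.33 and 2.493 CPM in the NM libraries, a log2 fold change of 2.33 ± 0.22 (SE, edgeR adjusted p = 1.58e-05). MYB51, an activator of that branch, was at 23.7 and 13.3 CPM in WSM against 4.86, 3.56 and 4.76 CPM in NM, a log2 fold change of 2.08 ± 0.25 (SE, edgeR adjusted p = 0.000109). PAD3, the last enzyme of camalexin synthesis, did not pass, at 2.90 and 2.78 CPM in WSM against 1.03, 2.23 and 2.34 CPM in NM. Of 18 flavonoid genes, 0 were called higher and 10 lower, or 5 without WSM library 4, 6 without any 1 of the NM libraries and 5 after the length correction, and 0 with the atg5 libraries in the same fit. LDOX, a dioxygenase of anthocyanin synthesis, had levels of 60.8 and 36.2 CPM in WSM against 90.04, 99.7 and 99.5 CPM in NM, a log2 fold change of -0.99 ± 0.20 (SE, edgeR adjusted p = 0.00352). DFR, which acts just before LDOX, did not pass, at 196 and 118 CPM in WSM against 138, 157 and 159 CPM in NM. Of 21 phenylpropanoid and lignin genes, 1 was called higher and 6 lower, or 3 lower without NM library 3 or 4. CAD9, a cinnamyl alcohol dehydrogenase, stood at 135 and 102 CPM in WSM against 311, 293 and 295 CPM in NM, a log2 fold change of -1.34 ± 0.17 (SE, edgeR adjusted p = 0.000186), while PAL1, the entry enzyme, did not pass, at 184 and 89.7 CPM in WSM against 196, 187 and 190.3 CPM in NM. LDOX did not pass with the atg5 libraries in the same fit (edgeR adjusted p = 0.0618).

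The largest rises included genes outside the lists. PP2-B14, an F-box protein with a phloem lectin domain, had 29.1 and 15.2 CPM in the WSM libraries, against 0.159, 0.0950 and 0 CPM in the NM libraries, or 581 and 419 counts in WSM against 2, 2 and 0 counts in NM. With so few NM counts a fitted fold change is unstable and none is given. AT1G05675, a UDP-glycosyltransferase, had 463 and 341 counts in WSM against 2, 4 and 4 in NM. AT3G02840, an ARM repeat protein, had 514 and 468 counts in WSM against 4, 0 and 8 in NM. AT5G52750, a heavy metal domain protein, was at 22.4 and 12.8 CPM in the WSM libraries, against 0.478, 0.238 and 0.335 CPM in the NM libraries, a log2 fold change of 5.69 ± 0.34 (SE, edgeR adjusted p = 6.84e-07). AT2G24600, an ankyrin repeat protein, had levels of 38.4 and 23.2 CPM in WSM against 0.637, 1.47 and 1.005 CPM in NM, a log2 fold change of 4.82 ± 0.29 (SE, edgeR adjusted p = 6.84e-07). PP2-B13, which neighbours PP2-B14, stood at 46.0 and 26.2 CPM in WSM against 0.159, 0.475 and 0.521 CPM in NM, and 63.5% of its exons overlap the opposite-strand RNA AT1G56242, so the counts of the 2 cannot be told apart. AT4G08985, an RNA gene lying wholly within RRTF1 on the opposite strand, had 521 and 647 counts in WSM against 0, 0 and 2 in NM and is uncertain for the same reason.

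Among the largest falls, tny (the AP2 factor TINY) was at 2.70 and 2.75 CPM in the WSM libraries, against 35.3, 23.05 and 26.2 CPM in the NM libraries, a log2 fold change of -3.36 ± 0.23 (SE, edgeR adjusted p = 1.48e-06). GDU1, a glutamine dumper that promotes amino acid export, had levels of 2.202 and 1.99 CPM in WSM against 11.5, 12.3 and 16.7 CPM in NM, a log2 fold change of -2.70 ± 0.24 (SE, edgeR adjusted p = 1.24e-05). ZFP6, a zinc finger factor of trichome initiation, stood at 0.801 and 2.097 CPM in WSM against 10.03, 9.27 and 8.15 CPM in NM, a log2 fold change of -2.60 ± 0.33 (SE, edgeR adjusted p = 0.000167). The aspartyl protease gene AT3G20015 was at 1.60 and 1.37 CPM in WSM against 9.47, 11.6 and 8.60 CPM in NM, a log2 fold change of -2.74 ± 0.25 (SE, edgeR adjusted p = 1.49e-05). These 4 kept both WSM libraries below every NM library. GDU1 did not pass with the atg5 libraries in the same fit (edgeR adjusted p = 0.088). Another 5 of the 15 largest falls, all unnamed RNA genes, had NM library 2 at least 5-fold above the other NM libraries. The largest of them, AT4G05185, had levels of 2.002 and 1.16 CPM in the WSM libraries, against 196, 5.61 and 2.38 CPM in the NM libraries, a log2 fold change of -5.43 ± 1.61 (SE, edgeR adjusted p = 0.0247), and without NM library 2 its log2 fold change was -1.35 (edgeR adjusted p = 0.0503). Its call also ended without WSM library 3 or 4 and with the atg5 libraries in the same fit, and DESeq2 gave no adjusted p for this gene. NM library 2 also had the largest share of rRNA-region counts, and the part of that share in these values was not tested.

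Some of the listed genes had counts in WSM alone. There were 8 genes with 0 counts in each of the 3 NM libraries, and 0 genes had 0 counts in both WSM libraries. A gene with 0 counts throughout 1 medium is listed only through the other, so its direction was fixed in advance. Its call is therefore no test of a rise, and the 8 and 0 depend on which genes were listed for wild type. FAMT (AT3G44860), a methyltransferase of farnesoic acid, had 204 and 257 counts in the WSM libraries, or 10.2 and 9.29 CPM, at least 59.3-fold above the floor of 3 counts per NM library. BHLH92, a factor known from osmotic stress, had 43 and 29 counts, at least 9.74-fold above that floor, and CRK41, a cysteine-rich kinase, 26 and 30 counts, at least 7.26-fold above it. FAMT, BHLH92 and CRK41 are named because of these values and not by the rule for named genes. CYP82C3, a cytochrome P450, had 41 and 27 counts in WSM, at least 9.21-fold above the floor, and DDF1, a dwarfing DREB factor, 22 and 28 counts, at least 6.43-fold above it. CYP82C3 and DDF1 are listed for wild type and not for atg5, as are 286 other genes. Of these 288, 22 were called higher and 34 lower, 19.4% in all, and their median level was 0.986 CPM, against 9.17 CPM over all genes.

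In the fit with the atg5 libraries every list discussed here kept no more calls than in wild type alone. Over all 19714 genes of that fit, 644 were called higher and 517 lower. List counts from that fit are to be read against these, and not against the 14.0% and 15.2% of wild type alone. Denominators given for that fit, here and above, count the members tested in wild type alone. Members not listed for atg5, such as ORA59, could not enter that fit and count as not called. Among lists with many rises, 10 of 22 immune kinases, 8 of 19 cysteine-rich kinases, 5 of 8 wall-associated kinases and 8 of 23 calcium sensors were called higher in it. Of the transcription factors it called higher 15 of 54 WRKY, 11 of 32 ERF and DREB, 8 of 56 NAC and 4 of 7 C2H2 members, and lower 3 of 68 MYB members. It called higher 9 of 19 jasmonate signalling genes, 4 of 16 salicylic acid genes, 3 of 19 ethylene genes, 6 of 34 ubiquitin ligases, 1 of 15 hypoxia genes, 0 of 15 large heat shock proteins, 1 of 14 trehalose phosphate enzymes and 2 of 16 sulfur genes. Among lists with many falls, 7 of 54 SAUR genes, 3 of 28 xyloglucan enzymes, 1 of 24 expansins, 11 of 39 arabinogalactan proteins, 14 of 55 lipid transfer proteins and 5 of 25 wax and cutin genes were called lower. The fit also called lower 43 of 287 ribosomal protein genes, 2 of 40 histones, 0 of 39 proteasome subunits, 0 of 43 glutathione S-transferases and 2 of 18 nitrate genes.

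Direction went with transcript length. Across all 20002 genes, Spearman's rho between exonic length and the log2 fold change was 0.373, a description over genes, which are not independent replicates. In the shortest of 4 equal groups of genes (17 to 1215 bases), 7.23% were called higher and 28.6% lower, with a median log2 fold change of -0.28. In the longest (2361 to 16614 bases), 27.8% were called higher and 4.06% lower, with a median of 0.33. The short SAUR, lipid transfer, arabinogalactan and ribosomal protein genes and the long receptor kinases lie on the sides that this trend favours. After a loess correction for length, 28 of 54 SAUR genes, 27 of 55 lipid transfer proteins and 23 of 39 arabinogalactan proteins were called lower, and 15 of 22 immune kinases higher. What links length with direction was not tested.

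**Figure D5:**
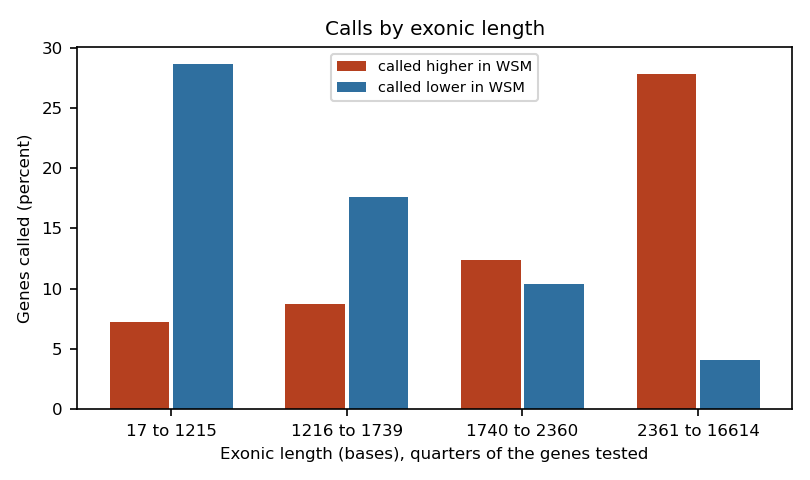
Percent of genes called higher and lower in WSM in 4 groups of equal size by exonic length in bases. Calls lower outnumber calls higher among the shortest genes (28.6% against 7.23%), and the reverse holds among the longest (4.06% against 27.8%).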

How the data were processed

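Gene counts of 5 wild-type libraries (2 WSM, 3 NM) were used as the authors deposited them. The build was TAIR10, and bedtools, Bowtie2, DESeq2 and bcl2fastq are the tools listed, per the submitters' processing notes, with no versions or settings given in the sources used here. Per the labels' protocols, RNA came from TRIzol extraction, a stranded mRNA kit and paired reads of 75 cycles. The authors' deposited log2 fold changes and p-values entered only as a comparison. Per the file headers, the tables also hold a test score per gene and a mean signal (baseMean) over libraries, which were not used, and neither were 10 columns of normalized values.

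Counts were tested with edgeR 4.0.16 in R 4.3.3 (TMM, filterByExpr, which removed 0 of 20002 genes, and the quasi-likelihood F test with 3 residual degrees of freedom and a common biological variation of 17.2%). P-values were Benjamini-Hochberg adjusted over all genes and called under 0.05, and SE is the absolute log2 fold change over the square root of F. Data were simulated from these libraries with 100 of 20002 genes changed by a log2 of 2 and 100 by a log2 of 1. Of these genes 95% and 54% were recovered, with 10 false calls of 159. The simulation changed a far smaller share of genes than the 29.2% called here and held no trend with length. It therefore does not give the error rate of these calls. Groups came from the column names, which give genotype and medium. An exact permutation of 2 against 3 libraries cannot go below p = 0.1. Alternatives were RLE factors, other filters, glmTreat, a loess correction for exonic length, a replicate block, leaving out each library, a fit with the 5 atg5 libraries over genes in both tables, and DESeq2 1.42.0.

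The genes and lists were chosen with earlier results of these data known. List entries whose symbol matched no gene, several genes or a gene with another product were left out, such as RAB18 and FLS2. Named genes are the 15 largest rises and falls (mean of at least 5 CPM, no overlap of media), the 8 called genes of highest mean CPM in each direction, up to 4 called and 2 uncalled members of each list, and 3 genes listed for wild type alone. A gene whose exons overlap an opposite-strand gene by 20% or more is called uncertain. Promoters and gene models came from the RefSeq TAIR10.1 genome, matched by locus. The exact intervals are 95% Clopper-Pearson. Protein sequences were not used here. A few results on individual genes and sequences are not reported here.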

Additional observations from a re-analysis of the deposited data

How the results depend on the processing

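The alternatives that change the count of calls by over 1.5 times were the stricter test and the joint fit. Against 5833 calls, testing against a log2 of 1 (glmTreat) gave 733, both with and without the second condition on size, and the fit with the atg5 libraries gave 1161, or 1014 with a fold change of at least 2 against 2488. A filter at 5 CPM on the mean over libraries, which tests fewer genes, gave 1508 calls of at least 2-fold. Leaving out 1 library gave 3907 to 5425 calls, and 2145 to 2573 of at least 2-fold. The other settings gave 5793 calls with size factors by RLE, 5833 without a filter, 5809 without genes in rRNA regions, 5440 with DESeq2 and 4455 after the length correction, of which 3737 were shared with the 5833. The correlation of length and fold change was 0.373, and it was 0.431 with the 5 CPM filter, -0.00866 after the length correction, which is built to remove it, and 0.302 to 0.400 with 1 library left out. With the replicate number as a block (replicate block), 5605 genes passed, and 2344 of at least 2-fold. The numbers 3 and 4 occur in both media, but nothing in the labels says that they pair samples. Deviations from the group mean correlated at 0.0968 and 0.149 between same-numbered libraries, and at -0.0968 and -0.149 between crossed ones. With 2 WSM libraries their deviations mirror each other, which fixes the crossed values, so these correlations cannot decide whether the numbers pair samples. Counts under 3 per NM library limit any fold change against genes at or near 0, and CPM under about 1 rests on few counts.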

Other observations

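Several heat shock factors were higher in WSM. Of the 18 factors, 8 were called higher and 1 lower, with a median log2 fold change of 0.59. HSFA6B, which acts in abscisic acid and heat responses, stood at 3.15 and 4.81 CPM in the WSM libraries, against 0.637, 0.570 and 0.409 CPM in the NM libraries, a log2 fold change of 2.93 ± 0.37 (SE, edgeR adjusted p = 0.000145). HSFA8 stood at 4.10 and 3.65 CPM in WSM against 0.637, 0.855 and 1.04 CPM in NM, a log2 fold change of 2.14 ± 0.32 (SE, edgeR adjusted p = 0.000514). HSFA1D, a master factor of the heat response, did not pass, at 8.008 and 9.33 CPM in WSM against 11.5, 10.5 and 10.8 CPM in NM. Of the 14 chlorophyll breakdown and senescence genes, 5 were called higher and 2 lower, or 0 lower without NM library 2 or WSM library 4 or after a correction for exonic length. BCB, a blue copper protein of the cell surface, stood at 23.67 and 19.6 CPM in WSM against 1.75, 1.71 and 1.41 CPM in NM, a log2 fold change of 3.75 ± 0.21 (SE, edgeR adjusted p = 4.18e-07). NYE1, which removes magnesium from chlorophyll, did not pass, at 5.56 and 2.78 CPM in WSM against 4.62, 4.66 and 3.57 CPM in NM.

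Of the auxin transport and synthesis genes, 1 of 17 members was called higher and 4 lower, with a median log2 fold change of -0.25. YUC5, a flavin monooxygenase that makes auxin and the single riser, stood at 2.70 and 4.45 CPM in the WSM libraries, against 0.159, 0.665 and 0.893 CPM in the NM libraries, a log2 fold change of 2.51 ± 0.45 (SE, edgeR adjusted p = 0.00164), and among the fallers LAX3, an influx carrier of lateral root emergence, stood at 4.40 and 5.28 CPM in WSM against 15.05, 16.02 and 9.08 CPM in NM, a log2 fold change of -1.45 ± 0.26 (SE, edgeR adjusted p = 0.00147). Of 19 clock genes, 4 were called higher and 4 lower, or 2 higher without NM library 2 or 4, and 1 higher and 5 lower after a correction for exonic length, which moved the median to -0.19, against 0.04. TOC1, an evening repressor, stood at 17.02 and 14.94 CPM in WSM against 8.44, 9.55 and 7.74 CPM in NM, a log2 fold change of 0.90 ± 0.17 (SE, edgeR adjusted p = 0.00258), and the morning factors CCA1 and LHY did not pass, at 56.1 and 51.0 CPM in WSM against 50.6, 45.4 and 54.1 CPM in NM and at 144 and 87.2 CPM in WSM against 101.7, 92.8 and 104 CPM in NM. Of 93 pectin enzymes, 9 were called higher and 24 lower, or 15 lower without NM library 3 and 5 higher without WSM library 4. AT3G10720, a pectin methylesterase, stood at 197 and 174 CPM in WSM against 47.7, 54.5 and 63.2 CPM in NM, a log2 fold change of 1.75 ± 0.16 (SE, edgeR adjusted p = 1.34e-05). Of 14 aliphatic glucosinolate genes, 1 was called higher and 3 lower. Of 20 carbon starvation genes, 2 were called higher and 0 lower, but 7 higher without WSM library 3, and 1 higher and 2 lower without WSM library 4. Of 27 sugar transporters, 1 was called higher and 3 lower. Of 21 Calvin cycle genes, 0 were called higher and 2 lower, but 5 higher without WSM library 3 and 5 lower without WSM library 4. Of 11 suberin genes, 0 were called higher and 3 lower, or 1 to 5 lower with 1 library left out. Of the other cell type markers, 2 of 11 for xylem were called higher and 0 lower, 2 of 8 for phloem higher and 1 lower, 1 of 9 for trichome and epidermis higher and 3 lower, 1 of 10 for meristems higher and 3 lower, and 0 of 15 for embryo and seed higher and 2 lower. The embryo and seed count was 7 lower without WSM library 3.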
